A study of Mus musculus with 12 samples.

Results

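RNA of 10 genes was followed in CD44+ CD8+ T cells of mice with a melanoma: 4 genes for small calcium-binding S100 proteins (S100a4, S100a6, S100a10 and S100a11), the annexin genes Anxa1 and Anxa2, the galectin genes Lgals1 and Lgals3, the actin capping gene Capg and the vimentin gene Vim. They are 10 of 48397 symbols in the count table and were found by symbol. The list itself was chosen from results of these same libraries, with no record of which of the 3 comparisons among sites was used. Levels and differences of these genes are therefore descriptions in all 3. How many of them passed a threshold set over all genes is printed beside the share of all genes that did, and neither is a test of these genes, since the choice of the list used the same values. All 10 passed the filter on low counts.

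The mice carried a Kaede transgene and YUMMER1.7 tumors, a mouse melanoma line. Kaede is a green fluorescent protein that turns red under violet light. Light was shone on the tumors on day 11 and organs were taken on day 12. Tumor-retained cells are red CD44+ CD8+ T cells sorted from the tumor, egressed cells are the red ones of the draining lymph node, and spleen cells are CD44+ CD8+ T cells for which the design names no color. Each group had 4 libraries, the tissues came from 4 mice, and all mice bore a tumor and had the light treatment. The sources used here do not give the strain, sex and age of the mice or any pooling of cells. A red cell in the node had been in the tumor at the time of the light, while the spleen cells hold every CD44+ CD8+ T cell of that organ.

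S100 proteins change shape when they bind calcium and then attach to other proteins. S100a10 is the exception that holds its active shape without calcium, and it pairs with annexin A2 at the inner face of the plasma membrane. Annexins bind membrane lipids when calcium rises. Galectins bind sugars on cell surface proteins and can be secreted. Capg caps the growing ends of actin filaments, and vimentin builds the intermediate filaments of lymphocytes, myeloid cells and connective tissue cells. Effector and memory T cells are known to hold more of several of these transcripts than naive T cells, and macrophages and fibroblasts hold much of them too.

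Total counts were 27.3 to 33.4 M (M, mega) for spleen libraries, 22.7 to 29.2 M for egressed ones and 25.6 to 36.3 M for those from the tumor. Levels are counts per M (CPM) scaled with TMM, the trimmed mean of M-values, and a floor of 3 counts in a library corresponds to 0.0889 to 0.125 CPM. This floor covers counting error only. The defining CD8 T cell gene Cd8a measured 649 to 1146 CPM over all 12 libraries, with both ends of that range in tumor-retained libraries. Cd8b1 measured 1120, 1012, 579 and 635 CPM in tumor-retained libraries 1 to 4. It averaged 1368 ± 61.6 CPM in egressed and 1743 ± 130 CPM in spleen cells (SD, n = 4). Not every CD8 T cell marker was lower in tumor-retained cells. Cd3g averaged 610 CPM in spleen, 655 CPM in egressed and 701 CPM in tumor-retained cells. Tumor-retained libraries 3 and 4 stood apart by transcripts of other cells. The summed level of 15 macrophage and monocyte markers reached 3355 and 4498 CPM there. It was 463 and 241 CPM for tumor-retained libraries 1 and 2, 178 to 227 for egressed and 235 to 341 for spleen libraries. The sum of 12 stromal and endothelial markers was 4783 and 2229 CPM in libraries 3 and 4, 154 and 147 CPM in libraries 1 and 2, 70.3 to 135 CPM in egressed and 145 to 164 CPM in spleen libraries. Outside libraries 3 and 4, Pecam1 made up most of the stromal sum and Ctsb most of the macrophage sum, except for Ctsb in egressed library 4. Leaving out Pecam1, which T cells can also express, the stromal sum was 41.9 and 65.1 CPM in tumor-retained libraries 1 and 2, above the 2.49 to 16.9 CPM of egressed and the 9.44 to 14 CPM of spleen libraries. Libraries 3 and 4 then held 4688 and 2166 CPM. Leaving out Ctsb, a lysosomal protease gene, the macrophage sum was 37.7 and 28.6 CPM in libraries 1 and 2, within the 4.74 to 112 CPM of egressed libraries, and 26.6 to 92.2 CPM in spleen. It was 2227 and 3572 CPM in libraries 3 and 4. Both reduced sums were chosen after seeing the data. The part of the stromal transcripts of libraries 1 and 2 in the results was not tested. The myeloid genes Cd14 and Lyz2 were at or near 0 in tumor-retained libraries 1 and 2, with 0.0307 and 0 CPM for Cd14 and 3.16 and 2.76 CPM for Lyz2. Not all markers of the list were so low. In tumor-retained library 1, Cd68 (19.6 CPM) and Ctsb (425 CPM) lay above every spleen and egressed library (up to 8.72 and 256 CPM). Lyz2 reached 68.1 CPM in egressed library 4. Results are given with all libraries and without tumor-retained libraries 3 and 4. In sorted bulk RNA, fewer cells of a type and less RNA per cell cannot be told apart.

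All 10 genes stood higher in each of the 4 tumor-retained libraries than in any egressed or any spleen library. Their summed level was 3097, 3197, 9584 and 8734 CPM in tumor-retained libraries 1 to 4. In egressed libraries 1 to 4 it was 1527, 1667, 1319 and 1237 CPM, and in spleen libraries 1 to 4 it was 1215, 1272, 840.2 and 875 CPM. Tumor-retained libraries thus lay above both other groups, with libraries 3 and 4 highest, and the egressed and spleen ranges overlapped. Groups did not overlap in that direction for 3.21% of 21457 tested genes between egressed and tumor-retained cells and for 4.43% between tumor-retained and spleen cells. Without tumor-retained libraries 3 and 4 all 10 genes still did not overlap with either group, against backgrounds of 6.49% and 8.34% of 26001 genes. Since the list may rest on these same differences, nothing is read from the counts.

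**Figure D1:**
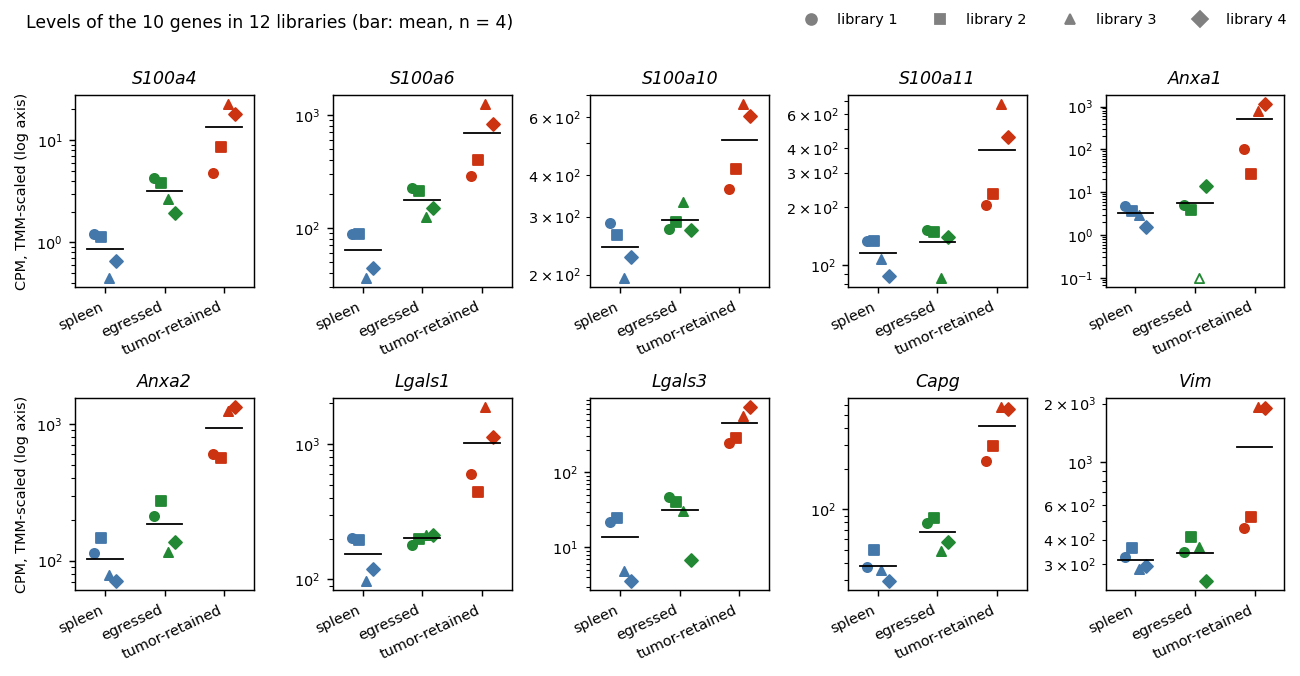
TMM-scaled CPM on log axes for each of the 10 genes, with 1 symbol shape per library number and a bar at the mean of 4 libraries; the open triangle for Anxa1 is a count of 0 drawn at the floor of 3 counts. The 4 tumor-retained points lie above all egressed and spleen points in every panel, with libraries 3 and 4 highest.

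The 4 S100 genes lie on mouse chromosome 3 (GENCODE M21 on mm10), within the cluster that holds most of the family. S100a4 spans 90603771 to 90606045 and S100a6 spans 90612882 to 90624181, so they are close neighbours. S100a11 (93520488 to 93526287) and S100a10 (93555080 to 93564643) form a second close pair. The others lie apart: Vim on chromosome 2 (13573927 to 13582826), Capg on chromosome 6 (72544391 to 72562983), Anxa2 on chromosome 9 (69453620 to 69491795), Lgals3 on chromosome 14 (47367751 to 47386160), Lgals1 on chromosome 15 (78926725 to 78930465) and Anxa1 on chromosome 19 (20373428 to 20390944). S100a4 shares 302 of its 584 exon bases with the predicted gene Gm42674 on the same strand, which had 0 counts in every library. The sources used here do not give how reads in shared exons were assigned, so the level of S100a4 is uncertain. Anxa2 shares 98 of 3731 exon bases with the antisense gene Gm16144, which had at most 71 counts in a library. The pseudogenes listed under the names Lgals1-ps1 and S100a11-ps had at most 48 and 22 counts.

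Promoter windows of 300 bases from RefSeq (build GRCm38.p6), 250 before to 50 after the transcript start, were found for 8 of the 10 genes. Since the genes stood high together, the windows were searched on both strands for the AP-1 motif TGANTCA, the KLF motif CACCC, the Runx motif TGTGGT, the hypoxia response motif ACGTG and the TATA box TATAAA, none of which contains another. The AP-1 letters were in 2 of 8 windows (7.81% of all 32851 windows), and the TATA box was in 4 (13.6% of all). CACCC was in 5 (57.5%), TGTGGT in 1 (16.8%) and ACGTG in 3 (19.6%). No motif was thus in all 8 windows. Shown are both windows with TGANTCA, S100a11 and Anxa2, and that of Anxa1, the gene with the widest range among the groups, read 5′ to 3′ with TGANTCA and TATAAA matches in capitals. S100a11 has its 2 matches of TGANTCA starting 136 and 38 bases before the transcript start. Anxa2 has TGANTCA 95 bases and TATAAA 17 bases before it, and Anxa1 has TATAAA 32 bases before it. A match is a run of letters and not a measured binding site.
S100a11 promoter, chr3:93520246-93520545, strand +: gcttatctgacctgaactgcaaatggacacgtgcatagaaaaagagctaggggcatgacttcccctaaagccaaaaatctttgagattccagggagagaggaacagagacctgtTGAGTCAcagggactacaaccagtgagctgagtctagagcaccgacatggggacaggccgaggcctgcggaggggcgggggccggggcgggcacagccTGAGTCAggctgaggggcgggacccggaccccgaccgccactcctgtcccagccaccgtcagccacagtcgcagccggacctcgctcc
Anxa2 promoter, chr9:69453433-69453732, strand +: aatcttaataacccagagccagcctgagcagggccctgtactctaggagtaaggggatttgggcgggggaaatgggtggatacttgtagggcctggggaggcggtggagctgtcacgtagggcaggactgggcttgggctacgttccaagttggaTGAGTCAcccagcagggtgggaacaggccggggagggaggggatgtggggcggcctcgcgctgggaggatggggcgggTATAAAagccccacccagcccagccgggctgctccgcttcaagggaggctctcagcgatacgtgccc
Anxa1 promoter, chr19:20390622-20390921, strand -: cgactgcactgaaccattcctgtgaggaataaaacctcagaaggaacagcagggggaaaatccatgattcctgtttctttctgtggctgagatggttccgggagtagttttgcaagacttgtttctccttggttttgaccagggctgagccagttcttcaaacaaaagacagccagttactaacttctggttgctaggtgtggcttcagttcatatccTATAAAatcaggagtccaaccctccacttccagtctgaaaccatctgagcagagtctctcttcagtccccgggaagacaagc

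S100a4, linked in many cell types to migration and to the motor protein myosin IIA, was the lowest of the 4 S100 genes. It measured 1.20, 1.12, 0.445 and 0.655 CPM in spleen libraries 1 to 4, 4.22, 3.79, 2.65 and 1.95 CPM in egressed and 4.76, 8.53, 22.9 and 18.2 CPM in tumor-retained libraries. The 3 groups did not overlap at all, although the lowest tumor-retained library was only 1.13 times the highest egressed one. Raw counts were 14 to 35 in spleen and 47 to 108 in egressed libraries, so the precision is low. S100a6, for calcyclin, a partner of several annexins, lay at a much higher level per length with the same order. It measured 87.7, 88.9, 35.7 and 44.2 CPM in spleen, 224, 209.8, 125 and 149 CPM in egressed and 287, 394, 1257 and 822 CPM in tumor-retained libraries 1 to 4. S100a6 thus also had 3 groups with no overlap. S100a4 and S100a6 were the only members whose egressed libraries all lay above all spleen libraries, as did those of 2.94% of tested genes.

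S100a10, the calcium-independent partner of annexin A2, moved over the smallest range of the 10. It measured 286, 265, 195 and 227 CPM in spleen, 276, 289, 331 and 273 CPM in egressed and 364, 418, 659.7 and 604 CPM in tumor-retained libraries 1 to 4. Egressed and spleen libraries overlapped. S100a11, a partner of annexin A1, measured 134, 134, 108 and 88.1 CPM in spleen, 151, 149, 85.9 and 141 CPM in egressed and 203, 234, 678 and 455 CPM in tumor-retained libraries. Tumor-retained libraries 1 and 2 lay above the highest egressed library, the lower of them at 1.34 times its level, and libraries 3 and 4 lay further above.

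Anxa1 encodes the annexin that, once secreted, damps inflammation through formyl peptide receptors. It was near absent outside the tumor at 4.77, 3.56, 2.99 and 1.56 CPM in spleen and 4.97, 3.83, 0 and 13.9 CPM in egressed libraries 1 to 4. The 0 of egressed library 3 allows up to 0.0981 CPM. Tumor-retained libraries 1 to 4 held 99.4, 26.4, 775 and 1172 CPM, so the highest and lowest libraries differed more, as a ratio, than for any other member in tumor-retained cells. Libraries 3 and 4, which hold the macrophage and stromal transcripts, averaged 15.5 times libraries 1 and 2. Anxa2, which with S100a10 forms a complex that binds plasminogen and its activator, measured 114, 147, 78.7 and 70.4 CPM in spleen and 212, 273, 117 and 138 CPM in egressed libraries. Tumor-retained libraries held 607, 567, 1256 and 1343 CPM, at least 2.08 times any egressed library. Per exon length, the ratio of Anxa2 to S100a10 ranged from 0.101 to 0.181 over spleen libraries, from 0.114 to 0.306 over egressed ones and from 0.441 to 0.722 over tumor-retained ones. This ratio therefore did not overlap between tumor-retained cells and the other groups, and it reached 0.542 and 0.441 in tumor-retained libraries 1 and 2.

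Lgals1 encodes galectin-1, which binds glycoproteins such as CD45, CD43 and CD7 and can trigger T cell death when added from outside. It measured 203, 196, 96.5 and 118 CPM in spleen, 181, 197, 213 and 213 CPM in egressed and 598, 443, 1876 and 1125 CPM in tumor-retained libraries 1 to 4. The 4 egressed libraries were the most alike of any member and overlapped with spleen. Lgals3 encodes galectin-3, which can form lattices with T cell receptor glycoproteins and is a ligand of the inhibitory receptor LAG-3. It measured 21.5, 24.4, 4.83 and 3.53 CPM in spleen, 47.5, 39.9, 30.9 and 6.90 CPM in egressed and 247, 289, 551 and 744 CPM in tumor-retained libraries. The lowest tumor-retained library was 5.19 times the highest egressed library, the widest gap of the 10 genes. Spleen libraries 1 and 2 averaged 5.49 times libraries 3 and 4 for Lgals3, and 1.19 to 2.21 times for the other 9 genes.

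Capg, the actin capping gene, measured 37.4, 49.7, 35.4 and 29.1 CPM in spleen, 78.9, 86.7, 49.5 and 57.0 CPM in egressed and 229, 295, 579.7 and 561 CPM in tumor-retained libraries 1 to 4. Egressed and spleen libraries overlapped by a narrow margin, since egressed library 3 lay just under spleen library 2. Vim measured 325, 363, 283 and 293 CPM in spleen, 347, 415, 365 and 244 CPM in egressed and 457, 523, 1929.6 and 1891 CPM in tumor-retained libraries. Vim in tumor-retained libraries 1 and 2 was close to the egressed level, and libraries 3 and 4 averaged 3.90 times those 2. Across members, libraries 3 and 4 averaged 1.62 times (S100a10) to 15.5 times (Anxa1) libraries 1 and 2. The part of the macrophage and stromal transcripts in these higher levels was not tested.

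Between egressed and tumor-retained cells the fitted differences all had the same sign. The log2 fold change (egressed minus tumor-retained, ± SE from edgeR's quasi-likelihood fit) was -6.52 ± 1.45 for Anxa1, -3.87 ± 0.75 for Lgals3, -2.61 ± 0.33 for Capg, -2.35 ± 0.38 for Anxa2 and -2.33 ± 0.41 for Lgals1. It was -2.11 ± 0.76 for S100a4, -1.96 ± 0.46 for S100a6, -1.81 ± 0.43 for Vim, -1.58 ± 0.35 for S100a11 and -0.81 ± 0.20 for S100a10. The median of the 10 was -2.22, beside 0.00 for all genes tested. As a description, 4 members were past an adjusted p of 0.05 over all genes and lower in egressed cells (Anxa2, Lgals1, Lgals3 and Capg) and 0 were higher, beside 0.587% of all genes called lower and 0.508% called higher. Nothing is read from this count. Without tumor-retained libraries 3 and 4 the member median was -1.21, with -1.94 ± 0.28 for Capg, -1.66 ± 0.35 for Anxa2, -1.36 ± 0.28 for Lgals1, -3.09 ± 0.80 for Lgals3 and -0.51 ± 0.19 for Vim. Capg was then the 1 member called (background 0.365%), and it was also the 1 called with the replicate number as a block (background 0.205%).

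That count moved with single libraries and with the fit. It was 0 from the 2 groups alone and 1 (Capg) with limma-voom. It was 2 without any 1 of the egressed libraries or without tumor-retained library 4, and it reached 9 when tumor-retained library 1 was left out and 7 for library 2. It was 3 without spleen library 1 or 2 or tumor-retained library 3, and 4 without spleen library 3 or 4. The number called among all genes also changed with the fit and the library left out. For the 2 groups alone, and as a range over left-out libraries, it is given in the last section. Nothing is read from these counts.

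**Figure D2:**
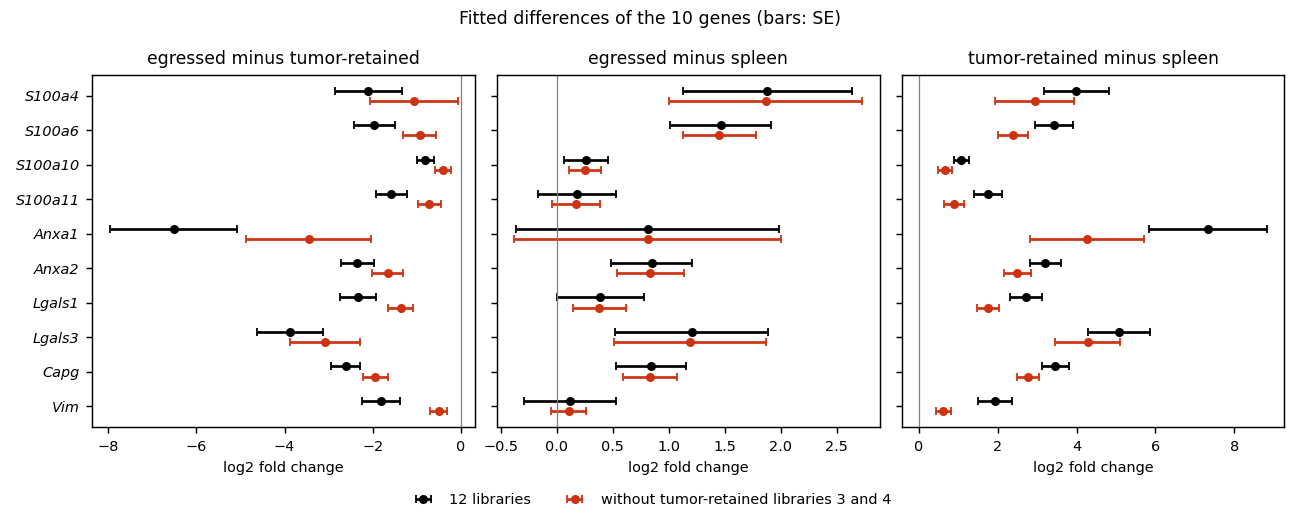
Fitted log2 fold changes of the 10 genes with SE bars in the 3 comparisons, from 12 libraries (black) and without tumor-retained libraries 3 and 4 (red). Without these libraries the differences from tumor-retained cells shrink, for Vim from -1.81 to -0.51 against egressed cells, and those between egressed and spleen cells stay nearly the same.

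Tumor-retained and spleen cells lay furthest apart. The log2 fold change (tumor-retained minus spleen) was 7.33 ± 1.5 for Anxa1, 5.08 ± 0.80 for Lgals3, 3.99 ± 0.82 for S100a4, 3.46 ± 0.34 for Capg and 3.43 ± 0.49 for S100a6. It was 3.20 ± 0.39 for Anxa2, 2.72 ± 0.41 for Lgals1, 1.93 ± 0.43 for Vim, 1.76 ± 0.36 for S100a11 and 1.07 ± 0.20 for S100a10. The member median was 3.31, beside -0.15 for all genes tested. All 10 were past the same threshold and higher, beside 1.02% of all genes called higher and 1.39% called lower, and nothing is read from this count either. With tumor-retained libraries 3 and 4 left out, the median was 2.44 and 5 were called (S100a6, Anxa2, Lgals1, Lgals3 and Capg; background 0.719%), and the same 5 were called with the replicate block (background 0.625%). Limma-voom called 4 (S100a4, S100a10, Anxa2 and Capg). The count was 5 without spleen library 3, spleen library 4 or tumor-retained library 4, and 6 without spleen library 1 or 2. Under these settings the number called among all genes changed as well, as given in the last section. Limma-voom called more of all genes than edgeR did, although it called fewer members. Nothing is read from the member counts.

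With all 12 libraries the fitted difference of egressed cells was smaller from spleen than from tumor-retained cells for every member. Without tumor-retained libraries 3 and 4 this turned for S100a4 and S100a6. S100a4 then had a log2 fold change of 1.87 ± 0.86 against spleen and -1.06 ± 0.99 against tumor-retained cells, and S100a6 had 1.45 ± 0.32 and -0.93 ± 0.38. The log2 fold change (egressed minus spleen) was 1.88 ± 0.76 for S100a4, 1.46 ± 0.45 for S100a6, 1.21 ± 0.68 for Lgals3, 0.85 ± 0.36 for Anxa2, 0.84 ± 0.31 for Capg and 0.81 ± 1.18 for Anxa1. It was 0.39 ± 0.39 for Lgals1, 0.27 ± 0.20 for S100a10, 0.18 ± 0.35 for S100a11 and 0.12 ± 0.41 for Vim. The member median was 0.83, beside -0.13 for all genes tested. With edgeR 0 of 10 members were called in either direction, beside 0.196% of all genes called higher and 0.172% called lower. DESeq2 called 2, S100a4 and S100a6, and limma-voom called 0. DESeq2 also called more of all genes than edgeR did, so nothing is read from these counts. The sign of Anxa1 turned without egressed library 4, the library with its highest egressed level, to -0.16 ± 1.22. The 3 comparisons share libraries, so their differences are not independent of each other.

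The split of all called genes depended on the scaling. With DESeq2-type size factors 322 genes were higher and 178 lower in tumor-retained than in spleen cells, against 219 and 299 with TMM. Scaling by library size called 150 genes higher and 110 lower in egressed than in tumor-retained cells, against 109 and 126. Between egressed and spleen cells 70 were higher and 20 lower with those size factors, against 42 and 37. The members called under these scalings were the same 4, 10 and 0.

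Per kilobase of exon, the order of the members differed between sites. In spleen the highest level per length was that of S100a11 (227 ± 43.6 CPM per kilobase, SD, n = 4), then S100a10 (200.5 ± 33.2) and Lgals1 (169.9 ± 59.8), and these 3 did not differ beyond their spread. In egressed cells the same genes led, S100a11 at 258 ± 60.3, S100a10 at 241 ± 22.3 and Lgals1 at 223 ± 17.0 CPM per kilobase. In tumor-retained cells Lgals1 led at 1119 ± 716, then S100a11 at 768 ± 432 and S100a6 at 505 ± 324, with spreads that overlap. The place of S100a6 came from tumor-retained libraries 3 and 4. In libraries 1 and 2, S100a10 (300 and 345 CPM per kilobase) lay above S100a6 (210 and 288). Anxa1 was last in spleen (1.11 ± 0.457) and in egressed cells (1.95 ± 2.02) and had 178 ± 189 CPM per kilobase in tumor-retained cells. S100a4 was last there by its mean of 23.3 ± 14.4, although in tumor-retained library 2 Anxa1 lay below it (9.06 against 14.6).

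Libraries that were high for 1 member within their group tended to be high for others. The correlation of deviations from the group mean in log2 CPM, over 12 libraries and with no test, had a median of 0.777 over 45 pairs of members and was above 0.5 for 39. It was highest for S100a4 and S100a6 (0.958), neighbours on chromosome 3, and for Anxa2 and Capg (0.941), which lie on different chromosomes. The other close pair on chromosome 3, S100a10 and S100a11, had 0.705, below that median. The correlation was lowest for Anxa1 and Lgals3 (0.107). Tumor-retained libraries 3 and 4, which hold the macrophage and stromal transcripts, were above libraries 1 and 2 for every member and enter these values. Without them, over 10 libraries, the median was 0.597, the range was -0.393 to 0.914 and 27 of 45 pairs were above 0.5, a comparison added after seeing the data.

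**Figure D3:**
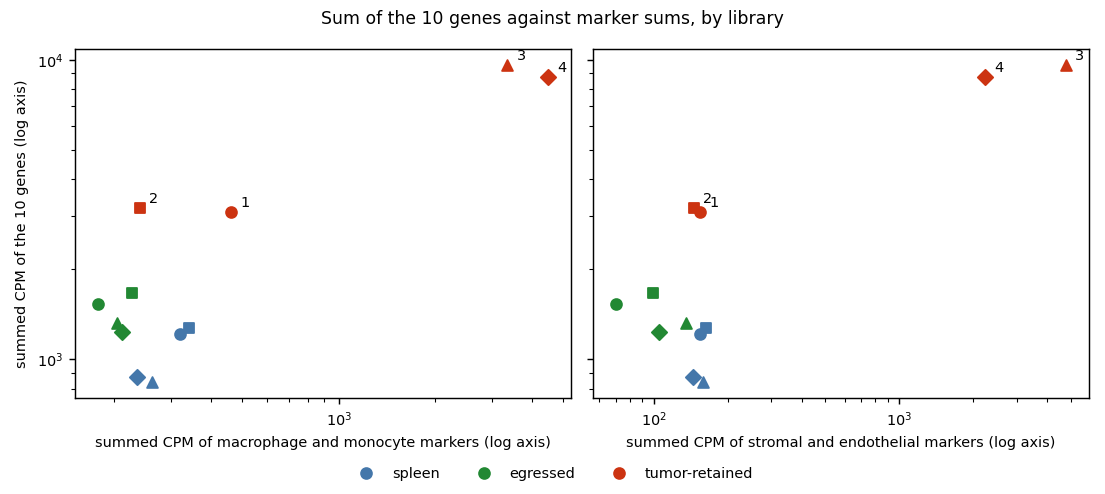
Summed CPM of the 10 genes in each library against the summed CPM of macrophage and monocyte markers (left) or of stromal and endothelial markers (right), all on log axes, with tumor-retained libraries numbered. Tumor-retained libraries 1 and 2 sit at 3097 and 3197 CPM, above all egressed and spleen libraries, at marker sums of 462.5 and 241 CPM (left), and libraries 3 and 4 are far to the right on both.

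Markers of other cell types were summed in the same way. Of 15 macrophage and monocyte markers tested, 0 were called higher and 1 lower in egressed than in tumor-retained cells with edgeR (median log2 fold change -4.36), and 8 had an unadjusted p under 0.05. Of 11 stromal and endothelial markers tested, 0 were called higher and 1 lower (median -6.78), and 7 had an unadjusted p under 0.05. The share of all genes at that unadjusted level is not given here, so nothing is read from these counts. Granulocyte markers summed to at most 57.2 CPM in any library, melanoma markers to at most 30.8 CPM and B cell markers to at most 41.2 CPM. Markers of CD4 and regulatory T cells summed to 208 to 366 CPM for tumor-retained, 75.6 to 116 CPM for egressed and 39.2 to 58.0 CPM for spleen libraries. The largest part was Ikzf2 (180.2 ± 50.2 CPM in tumor-retained cells, SD, n = 4), for the transcription factor Helios, and the defining gene Cd4 measured 0 to 3.86 CPM. Il2ra measured 19.8, 59.8, 31.3 and 85.6 CPM in tumor-retained libraries 1 to 4 and 2.66 to 5.63 CPM in spleen libraries. Foxp3 measured 0, 0, 29.1 and 14.6 CPM in tumor-retained libraries 1 to 4 and 45.2 CPM in egressed library 4. Cd40lg and Tnfrsf4 also had their highest means in tumor-retained cells. Which cells held these transcripts was not tested. Markers of dendritic cells summed to 61.5 to 148 CPM for tumor-retained, 37.5 to 109.6 CPM for egressed and 22.5 to 54.2 CPM for spleen libraries. Natural killer and gamma delta T cell markers summed to 85.0 to 195, 113 to 267 and 146 to 196 CPM, and CD8 T cell markers to 7324 to 13108, 10591 to 11406 and 10932 to 12174 CPM, in the same order.

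Of the related genes, 77 were in the table and 64 were tested. They came from the rest of the S100, annexin, galectin and gelsolin families, actin partners, intermediate filaments and lamins, and known binding partners. Between egressed and tumor-retained cells 0 were called higher and 1 lower, between egressed and spleen cells 1 higher and 1 lower, and between tumor-retained and spleen cells 3 higher and 2 lower. Their median log2 fold changes were -0.53, -0.19 and 0.33. The list was drawn up from family membership and known binding, with results of these data known. Below, counts at an unadjusted p under 0.05 stand without the share of all genes at that level, and nothing is read from them.

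With edgeR 0 of the 7 tested S100 genes that are no member (of 12 in the table) were called in any comparison. At an unadjusted p under 0.05 there were 1, 0 and 4 in the order egressed against tumor-retained, egressed against spleen and tumor-retained against spleen, and DESeq2 called 0, 0 and 1. Their median log2 fold change between tumor-retained and spleen cells was 0.58. S100a13, which helps release growth factors, measured 41.0 ± 6.76 CPM in spleen, 47.4 ± 11.4 in egressed and 61.3 ± 4.32 in tumor-retained cells (SD, n = 4). S100a1 measured 0.318 ± 0.249, 1.00 ± 1.66 and 6.92 ± 6.51 CPM.

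Of the 10 other annexins edgeR called 0 in any comparison, with 1, 0 and 2 at an unadjusted p under 0.05 in the same order, and DESeq2 called 1, 0 and 2. The median between tumor-retained and spleen cells was 0.47. Anxa6 measured 1138 ± 64.1 CPM in spleen, 965 ± 184 in egressed and 977 ± 228 in tumor-retained cells. Anxa5, which binds phosphatidylserine on dying cells, measured 63.8 to 104 CPM over the spleen and egressed libraries and 96.3, 97.9, 728 and 385 CPM in tumor-retained libraries 1 to 4. Its high values were those of libraries 3 and 4.

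Of the 5 other galectins tested (7 in the table) edgeR called 0, with 2, 0 and 2 at an unadjusted p under 0.05, and DESeq2 called 0, 0 and 0. The median between tumor-retained and spleen cells was -0.56. Lgals9, known as a ligand of the inhibitory receptor TIM-3, measured 239 ± 15.7 CPM in spleen, 224 ± 63.5 in egressed and 162 ± 35.5 in tumor-retained cells. Lgals8 measured 86.1 ± 10.4, 94.5 ± 14.2 and 88.1 ± 28.9 CPM.

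Of 17 gelsolin family and actin genes tested, 1 rose in egressed over spleen cells and 1 fell in tumor-retained against spleen cells, and the medians were -0.30 and -0.17. Tmsb4x, for thymosin beta 4, which holds actin monomers, rose from 5686 ± 228 CPM in spleen to 9202 ± 939 in egressed cells (log2 fold change 0.69 ± 0.09, adjusted p = 0.0114 with edgeR). That call ended without spleen library 1, 2 or 3 (adjusted p up to 0.0689). Actb, for beta actin, fell from 7783 ± 1452 CPM in spleen to 3622 ± 1387 in tumor-retained cells (-1.10 ± 0.24, adjusted p = 0.0314 with edgeR). Its adjusted p was 0.108 under the replicate block, 0.0546 with DESeq2-type size factors, 0.0788 from the 2 groups alone, 0.211 with limma-voom and 0.0615 when the 3 libraries of fewest detected genes were left out. Its call also ended when 1 of egressed libraries 2 and 4, spleen libraries 1 to 3 or tumor-retained library 1 was left out (up to 0.110). Without tumor-retained libraries 3 and 4 its adjusted p fell to 0.000742 with edgeR. Tumor-retained libraries 1 to 4 held 2570, 2282, 4858 and 4780 CPM of Actb. In that fit Actb was also called lower in egressed than in spleen cells (adjusted p = 0.00554 with edgeR), against 0.0781 with all libraries.

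Of 7 intermediate filament and lamin genes tested besides Vim, edgeR called 0 in any comparison, with 3, 1 and 3 at an unadjusted p under 0.05, and DESeq2 called 2, 0 and 3. Lmna, for lamin A and C of the nuclear envelope, measured 14.2 ± 3.51 CPM in spleen and 28.2 ± 27.9 in egressed cells. Tumor-retained libraries 1 to 4 held 151, 144, 1008 and 915 CPM of it. Plec, for plectin, which links vimentin to other structures, measured 313 ± 43.8, 139.9 ± 38.1 and 275 ± 175 CPM in spleen, egressed and tumor-retained cells. Tumor-retained libraries 1 to 4 held 151, 108, 475 and 366 CPM of Plec. Without libraries 3 and 4 it was called lower in tumor-retained than in spleen cells (adjusted p = 0.0461 with edgeR).

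Of 18 binding partners and receptors tested, 3 rose and 1 fell in tumor-retained against spleen cells. Plaur, for the urokinase receptor, which works with plasminogen activation at the cell surface, measured 41.0, 50.4, 367 and 385 CPM in tumor-retained libraries 1 to 4, and averaged 11.2 ± 3.08 CPM in egressed and 6.96 ± 1.39 CPM in spleen cells (SD, n = 4). No tumor-retained library overlapped with the others. Plaur rose over spleen (log2 fold change 4.92 ± 0.73, adjusted p = 0.00339 with edgeR) and fell in egressed against tumor-retained cells (-4.23 ± 0.71, adjusted p = 0.0164 with edgeR). The second call ended without tumor-retained libraries 3 and 4 (adjusted p = 0.126), under the replicate block (0.0788) and without egressed library 1 or 3 (up to 0.0632). It was also lost from the 2 groups alone (0.121) and with limma-voom (0.368), which also ended the call over spleen (0.269). Cd7, for a surface protein that galectin-1 binds, rose from 99.2 ± 7.71 CPM in spleen to 309 ± 82.8 in tumor-retained cells (1.64 ± 0.24, adjusted p = 0.00291 with edgeR), a call made with each of the 12 libraries left out in turn. Slc3a2, for the CD98 heavy chain, which galectin-3 binds, rose from 188 ± 17.0 to 410.1 ± 106 CPM (1.12 ± 0.20, adjusted p = 0.0116 with edgeR), a call that ended without spleen library 1 or 2 (up to 0.0633).

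Myh9, for the myosin IIA heavy chain that S100a4 binds, fell. It measured 894 ± 181 CPM in spleen, 459 ± 48.0 in egressed and 462 ± 57.9 in tumor-retained cells. The log2 fold change against spleen was -0.95 ± 0.16 in tumor-retained (adjusted p = 0.00735 with edgeR) and -0.96 ± 0.16 in egressed cells (adjusted p = 0.0301 with edgeR). Under the replicate block the egressed call was lost (adjusted p = 0.140), as it was when any 1 of the egressed libraries or of spleen libraries 1 to 3 was left out (up to 0.152). It was 0.0681 with DESeq2-type size factors, 0.0511 with library size and 0.0535 with the 3 libraries of fewest detected genes left out. Ptprc, for CD45, a surface protein that galectin-1 binds, measured 2984 to 3255 CPM in spleen, 2882 to 3325 CPM in egressed and 2408 to 4102 CPM in tumor-retained libraries.

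**Figure D4:**
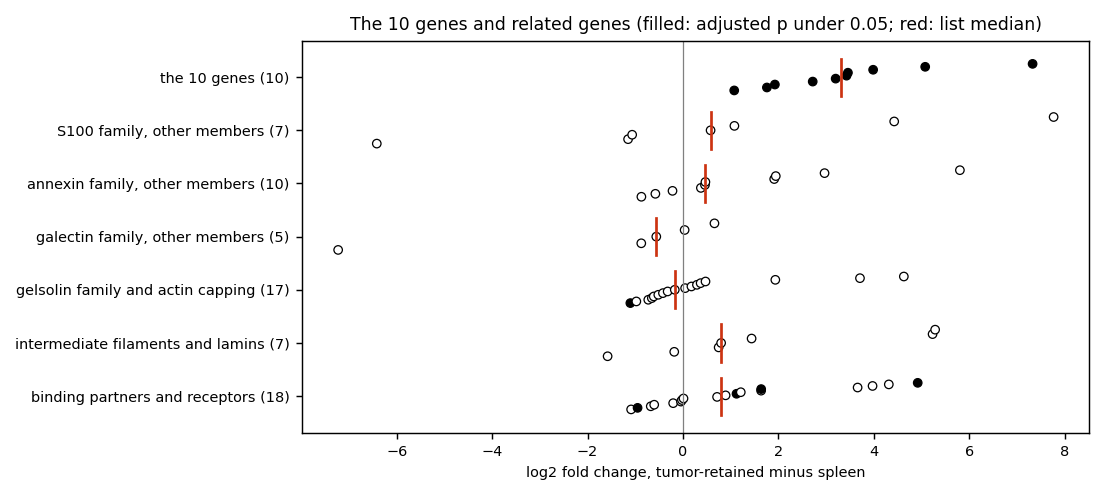
Log2 fold changes between tumor-retained and spleen cells for the 10 genes and 6 lists of related genes, with 1 point per tested gene, filled points for an adjusted p under 0.05 over all genes and a red line at the list median. The 10 genes are shown as a description; their median is 3.31, and the medians of the other lists lie between -0.56 and 0.80.

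The genes whose levels followed the 10 most closely were sought among 9422 other named genes with at least 10 CPM in a group. The measure was Pearson's r, over 12 libraries and with no test, between a gene's log2 CPM and the mean of the members' standardised log2 CPM. The 8 highest were Fth1 (r = 0.980), for ferritin heavy chain, Ccr2 (0.974), a receptor for CCL2, Plaur (0.966), the glycolytic enzyme gene Gapdh (0.963), Ms4a6d (0.961), Litaf (0.957), Ikzf2 (0.949) and Ybx3 (0.943), for a cold shock domain protein. Mean levels in spleen, egressed and tumor-retained cells were 676, 864 and 2738 CPM for Fth1 and 39.7, 56.7 and 294 CPM for Ccr2. All 8 share the libraries and the split among sites with the members. The members' mean was highest in tumor-retained libraries 3 and 4 (1.78 and 1.61, against 0.549 and 0.649 in libraries 1 and 2). Libraries 3 and 4 hold the macrophage and stromal transcripts, and no ranking without them was made. Which cells expressed these 8 genes was not tested.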

How the data were processed

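RNA was sequenced from 12 libraries of sorted mouse T cells, made with the SMART-Seq v4 ultra low input kit per the labels' protocols. Per the submitters' processing notes the build was mm10 and the tools included STAR 2.7.3a, cutadapt 2.5, Cufflinks 2.2.1 and Bowtie2 2.5.1, with no roles stated. The sources used here do not give the counting program, its annotation or its strand setting.

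The authors deposited raw counts per gene symbol and a table of log2 values. Each deposited log2 value equalled log2(count / library factor + 1) within 5.06e-09, so that table was only checked against the counts. Positions and exon lengths came from GENCODE M21, which held 46368 of the 48397 symbols. Symbols of the related and marker lists were in the table except Lgals6.

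Counts were filtered with filterByExpr (21457 genes kept), scaled with TMM and fitted in edgeR 4.0.16 (R 4.3.3) with 1 quasi-likelihood model of the 3 groups, without a block, and Benjamini-Hochberg adjustment at 0.05 over all genes. The script was checked on simulated data. DESeq2 1.42.0, limma-voom 3.58.1, other scalings, no filter, 2 groups alone, a replicate block and left-out libraries were alternatives. SE is the log2 fold change divided by the root of the F statistic. P-values set a difference between groups against the spread between libraries. The main fit takes the libraries as independent, although those of different sites may come from the same mouse.

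The design text names 4 mice, and libraries of the 3 sites share the numbers 1 to 4; that a number marks 1 mouse was assumed for the block. As a check, deviations from the group mean were correlated between libraries with equal numbers (r from -0.124 to 0.117), and a library's best match in another group had its own number in 5 of 24 cases.

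The members and lists were chosen with earlier results of these data known. The rule for naming genes took all members, related genes that passed, the 2 most abundant genes of each related and marker list (the latter where a result turns on them) and the 8 genes with the most similar levels. Cd8a, Cd4, Lyz2 and Cd14 were named as defining markers. Cd8b1, Cd3g, Il2ra, Foxp3, Cd40lg and Tnfrsf4 were named to show how the markers of their lists differed.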

Additional observations from a re-analysis of the deposited data

Results flagged for a closer look

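Over 30 sets of 4 libraries (10 genes in 3 groups), 1 held a library far from the other 3 by Dixon's criterion, which by chance flags about 1 set in 20. It was S100a11 in egressed library 3, at 85.9 CPM against 141 to 151 CPM in the other egressed libraries. This library detected 14927 genes, the lowest number of the 12.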

How the results depend on the processing

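Scaling with DESeq2-type size factors moved the median log2 fold change of all genes from -0.15 to 0.03 between tumor-retained and spleen cells and from -0.13 to 0.03 between egressed and spleen cells. The counts of members called, 4 between egressed and tumor-retained cells, 10 between tumor-retained and spleen cells and 0 between egressed and spleen cells, were in that order 10, 10 and 2 with DESeq2, 1, 4 and 0 with limma-voom, 0, 10 and 0 with only the 2 groups compared, 1, 5 and 0 with the replicate block and 1, 5 and 0 without tumor-retained libraries 3 and 4. With single libraries left out they ranged over 2 to 9, 5 to 10 and 0 to 0. The counts over all genes, 235, 518 and 79, were 1919, 1777 and 508 with DESeq2, 13, 1304 and 230 with only 2 groups, 78, 295 and 23 with the replicate block and 442, 2347 and 103 with the 3 libraries of fewest detected genes left out. Limma-voom gave 1197 and 209 for the last 2, and no filter 342 and 41. With single libraries left out they ranged over 95 to 487, 223 to 645 and 5 to 123. Of related genes 1, 5 and 2 were called. DESeq2 called 12, 17 and 4, the replicate block 0, 4 and 1, and with the 3 libraries of fewest detected genes left out 4, 19 and 2. Only the 2 groups compared gave 0 for the first, leaving out tumor-retained libraries 3 and 4 gave 8 for the second, and DESeq2-type size factors or library size scaling gave 1 for the third. With single libraries left out these ranged over 0 to 6, 3 to 10 and 0 to 3. Of 630 recomputed fold changes of members, 18 moved by more than the spread between libraries, all without tumor-retained libraries 3 and 4, and 2 changed sign, both for Anxa1 between egressed and spleen cells (limma-voom and without egressed library 4). The cause of these changes was not tested. Counts of S100a4 were low, at 14 to 108 outside the tumor, and its level is also uncertain because it shares exon bases with Gm42674.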
